A study of Mus musculus with 8 samples.

Results

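RNA levels of 9 genes of homologous recombination and Fanconi repair were followed through a mouse model of prostate cancer, from normal prostate (WT) to prostatic intraepithelial neoplasia (PIN) and prostatic adenocarcinoma (PCa). The genes, *Brca1*, *Bard1*, *Palb2*, *Brca2*, *Rad54l*, *Exo1*, *Blm*, *Fancd2* and *Fanci*, were taken by symbol from a table of 27036 genes, and all 9 were among the 14034 with enough reads to test. They were chosen with earlier results of these data known. The bulk RNA-seq series held 3 WT, 3 PIN and 2 PCa libraries of prostate tissue. PIN and PCa tissues came from *R26mTmG/hAR:Osr1Cre/+* mice (hARtg-Osr1Cre in the labels), in which Cre driven by the *Osr1* promoter switches on a human androgen receptor transgene and a membrane GFP reporter, both placed at *Rosa26*, in *Osr1*-lineage prostate cells. The labels call the controls WT only, but by the study's description their genotype was *R26mTmG/+:Osr1Cre/+*, with the reporter and Cre but no transgene. All mice were of a mixed C57BL/6 and 129S1/SvImJ background. No age is given for the individual bulk samples. The human transgene is not a gene of the table, so the labels were checked here only against tissue markers.

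Homologous recombination repairs a broken chromosome by copying the intact sister chromatid, and so acts mainly in S and G2 phase. The broken ends are first resected, a protein filament then forms on the single strand, and it searches for the matching duplex. The Fanconi pathway recognises DNA crosslinks at stalled replication forks, marks them with the ubiquitinated FANCD2 and FANCI pair, and hands the resulting breaks to the same recombination factors. Inherited or acquired loss of *BRCA2* and its partners is a known feature of aggressive prostate cancer in men, and tumors with such loss are treated with PARP inhibitors.

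The stretches upstream of 4 genes are shown because these 4 passed the test between PCa and WT described further on. *Fanci*, the fifth to pass, is not shown, since in the count table it starts upstream of its RefSeq promoter. Sequences are from RefSeq (table build GRCm38.p6), which held a promoter of 300 bases for 7 of the 9 genes, and each was found once, letter for letter, in mm9, whose coordinates are given. *Fancd2* and *Exo1* had no entry. Each stretch runs 5′ to 3′ along the gene's strand and ends at the base before the start of the gene in the count table or in RefSeq, whichever lies further upstream. Capitals mark exact matches, on either strand, to an E2F-like word (TTTCCCGC, TTTCGCGC, TTTGCCGC or TTTGGCGC), to the cell cycle homology word TTTGAA and to the NF-Y box CCAAT.

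Brca1, chr11:101413270-101413519, minus strand: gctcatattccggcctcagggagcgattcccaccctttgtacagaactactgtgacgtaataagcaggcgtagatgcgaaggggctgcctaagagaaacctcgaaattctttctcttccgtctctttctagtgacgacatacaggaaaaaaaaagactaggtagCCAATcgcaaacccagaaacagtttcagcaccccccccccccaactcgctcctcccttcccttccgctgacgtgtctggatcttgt

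Bard1, chr1:71149721-71149796, minus strand: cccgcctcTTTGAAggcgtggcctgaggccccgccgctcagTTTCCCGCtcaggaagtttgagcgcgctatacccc

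Brca2, chr5:151324946-151325195, plus strand: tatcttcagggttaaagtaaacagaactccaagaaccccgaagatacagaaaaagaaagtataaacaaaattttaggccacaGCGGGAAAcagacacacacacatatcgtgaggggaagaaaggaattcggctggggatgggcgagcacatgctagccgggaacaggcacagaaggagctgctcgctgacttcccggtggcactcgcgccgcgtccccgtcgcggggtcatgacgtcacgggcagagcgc

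Blm, chr7:87680006-87680134, minus strand: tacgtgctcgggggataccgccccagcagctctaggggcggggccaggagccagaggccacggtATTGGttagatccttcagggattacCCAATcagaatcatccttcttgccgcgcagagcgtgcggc

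An E2F-like match lay in the 300-base promoters of 2 of the 7 genes, *Bard1* at -209 on the gene's own strand and *Brca2* at -168 on the reverse strand, counted from the RefSeq start. Of 32841 mouse promoters of that length, 2.27% held such a word, and of 27018 genes 2.61% had a promoter that did. In *Bard1* the start of the gene in the count table lies further upstream, and from there the match stood at -35. The TTTGAA word occurred in *Bard1* alone, at -242, and in 17.9% of all promoters (20.2% of genes). CCAAT was found in 4 of the 7, including *Brca1* at -86 and *Blm* at -186 and -161, against 37.4% of all promoters (41.1% of genes). The promoter of *Fanci* held none of these words.

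The 8 libraries held 21751803 to 29730420 counts each, and the 9 genes together drew 262 counts in WT 2 and 3375 in PCa 1, with 7 counts (*Fanci*, WT 2) as the lowest single value. WT 2 had the lowest level of all 8 libraries for 9 of 9 of these genes. The share of all genes for which it was lowest was not counted, so this is not shown to be particular to them. Levels are given as CPM, each library's counts scaled to a common total, after TMM scaling, with factors from 0.754 (WT 2) to 1.33 (PCa 1). Prostate markers were present in every WT and PIN library, where the 7 luminal markers summed to 12240 CPM or more, against 3583 and 1930 in PCa, with the prostate secretory gene *Pbsn* at 8.53 and 60.8 CPM in PCa and at 6552 CPM or more in WT. Of the 7, 7 had a lower fitted level in PCa than in WT and 4 than in PIN (3 were higher), with 1 called lower in each comparison. The 7 seminal vesicle markers summed to 14816 CPM in WT 1 and to at most 0.0732 CPM in WT 2 and WT 3, to at most 40.4 in PIN, and to 4115 and 665 in PCa 1 and PCa 2. Of the 6 of these with enough reads to test, 6 had both PCa libraries above all PIN libraries, and edgeR called 0 between PCa and PIN (2 at an unadjusted p under 0.05). The 4 basal markers summed to 167 to 216 CPM in WT, 178 to 387 in PIN, and 604 and 27.4 in PCa 1 and PCa 2. The 8 smooth muscle and stroma markers summed to 1637 to 4188 CPM in WT, 2873 to 5053 in PIN and 311 and 82.8 in PCa, while the 12 leukocyte markers summed to 65.4 to 147 CPM in WT, 75.1 to 170 in PIN, 412 in PCa 1, the highest of the 8 libraries, and 38.5 in PCa 2, the lowest. In bulk tissue, fewer cells of a type and less RNA per cell cannot be told apart, and the part of cell composition in the results that follow was not tested. Library numbers in the labels place the WT libraries apart from the PIN and PCa libraries, whose numbers lie together, so that a batch, if those numbers mark one, and the condition cannot be told apart against WT. The number of WT 1 is also far from those of WT 2 and WT 3, which lie together. No label states that same-group libraries came from separate animals, and p-values then measure the spread between these samples.

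Every one of the 9 genes was higher in both PCa libraries than in any WT or PIN library, and 5 of them passed the test against WT. Calls came from edgeR's quasi-likelihood F-test, adjusted by Benjamini-Hochberg over all 14034 genes, and needed both an adjusted p under 0.05 and a log2 fold change beyond 1 in either direction. Called higher in PCa than in WT were *Brca1*, *Bard1*, *Brca2*, *Blm* and *Fanci*, 5 of 9, where 4.35% of all genes were called higher and 4.18% lower. Between PCa and WT the groups did not overlap for 9 of 9, against 17.7% of all genes with every PCa library above every WT library. The median log2 fold change of the 9 was 2.35, against 0.01 over all tested genes. Since the 9 were chosen with earlier results of these data known, these contrasts with all genes describe the set and do not test it. Leaving out WT 1 left 2 of the 9 called and leaving out WT 2 left 4, with medians of 2.33 and 2.00. A fit of the WT and PCa libraries alone called 0 of the 9, with edgeR adjusted p of 0.0649 or more and 7 of the 9 at an unadjusted p under 0.05, while DESeq2 on all 8 libraries called 8. Calls over all genes moved with them, from 1198 to 130 in the fit of 2 groups, 2487 with DESeq2, 628 without WT 1 and 1023 without WT 2.

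*Brca1* and *Bard1* form a heterodimeric ubiquitin ligase that promotes end resection and the later steps of recombination. *Brca1* (ENSMUSG00000017146, mm9 chr11:101350078-101413269) measured 2.27, 1.54 and 3.81 CPM in WT 1, 2 and 3, 5.54, 3.44 and 4.60 in PIN 1, 2 and 3, and 18.3 and 23.6 in PCa 1 and 2. Both PCa values lay above all others, and the lowest PIN value lay below the highest WT value. PCa exceeded WT by 3.04 on the log2 scale (SE 0.44, edgeR adjusted p = 0.0108), an 8.23-fold difference. *Bard1* (ENSMUSG00000026196, chr1:71074072-71149720) stood at 0.692, 0.498 and 1.13 CPM in WT, at 1.15, 1.48 and 1.58 in PIN, and at 7.02 and 6.75 in PCa. Here the 3 groups were fully separated, although WT 3 and PIN 1 nearly touched. The log2 fold change of *Bard1* from WT to PCa was 3.14 (SE 0.49, edgeR adjusted p = 0.0126). *Brca1* and *Bard1* kept their calls against WT whichever of the 8 libraries was left out.

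*Palb2* bridges BRCA1 to BRCA2, and *Brca2* acts on the resected DNA. *Brca2* (ENSMUSG00000041147, chr5:151325205-151372321) had the highest mean CPM of the 9 in PCa, although *Brca1* was above it in PCa 2, with 4.55, 1.81 and 5.86 CPM in WT, 9.03, 9.09 and 8.40 in PIN, and 30.0 and 20.5 in PCa. Its 3 groups did not overlap, and the PIN libraries lay within a narrow band of 8.84 ± 0.38 CPM (SD, n = 3). The rise from WT to PCa was 2.63 on the log2 scale (SE 0.47, edgeR adjusted p = 0.0199), a call lost without WT 1 (adjusted p = 0.0533). *Palb2* (ENSMUSG00000044702, chr7:129250776-129276460) had 2.22, 0.634 and 2.12 CPM in WT, 1.91, 2.24 and 1.73 in PIN, and 5.41 and 5.79 in PCa. WT and PIN overlapped, and both PCa libraries were above them. The difference between PCa and WT, 1.75 on the log2 scale (SE 0.56), did not pass (edgeR adjusted p = 0.0949).

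*Exo1*, a nuclease, and *Blm*, a RecQ helicase, lengthen the resected end, and BLM also dissolves the joint molecules formed later. *Blm* (ENSMUSG00000030528, chr7:87599879-87680005) measured 2.22, 1.04 and 3.66 CPM in WT, 3.17, 5.24 and 4.75 in PIN, and 14.4 and 9.22 in PCa. PCa 1 was well above PCa 2, and both stood above every WT and PIN library. *Blm* was called between PCa and WT at 2.35 on the log2 scale (SE 0.55, edgeR adjusted p = 0.0412), but the call remained in 1 of the 8 fits that each left out 1 library, with adjusted p from 0.0423 to 0.0989. It was also lost with upper-quartile normalization (edgeR adjusted p = 0.0515), which the study required to give concordant results, and with the replicate number as a block (0.0833). *Exo1* (ENSMUSG00000039748, chr1:177810909-177841527) had the smallest difference, with 5.88, 3.94 and 8.42 CPM in WT, 7.74, 11.7 and 10.7 in PIN, and 11.9 and 12.9 in PCa. PCa 1 exceeded PIN 2 by little, and *Exo1* did not pass the test against WT (log2 fold change 1.03, SE 0.38, edgeR adjusted p = 0.129). *Rad54l* (ENSMUSG00000028702, chr4:115766869-115796295), a DNA motor that acts in strand exchange, went from 2.22, 0.906 and 3.59 CPM in WT and 3.67, 2.96 and 3.77 in PIN to 7.79 and 9.29 in PCa. WT 3 reached the level of the PIN libraries, and the log2 fold change of 1.93 from WT to PCa (SE 0.55) did not pass (edgeR adjusted p = 0.0703).

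*Fancd2* and *Fanci* encode the clamp that closes on crosslinked DNA, and their fold changes differed in size. *Fanci* (ENSMUSG00000039187, chr7:86536815-86595151) measured 0.791, 0.317 and 1.06 CPM in WT, 1.40, 0.827 and 1.88 in PIN, and 7.24 and 6.45 in PCa. It had the largest log2 fold change of the 9 between PCa and WT, 3.23 (SE 0.61, edgeR adjusted p = 0.0235), on counts of 7 to 29 in WT, and its call held in 4 of the 8 fits without 1 library. *Fancd2* (ENSMUSG00000034023, chr6:113481676-113547011) measured 3.76, 1.18 and 3.15 CPM in WT, 2.16, 3.13 and 3.16 in PIN, and 6.50 and 7.96 in PCa. WT 1 was above all 3 PIN libraries, and the log2 fold change of 1.42 between PCa and WT (SE 0.53) did not pass (edgeR adjusted p = 0.132). The difference between these partners was not tested. The gene span of *Fanci* overlaps that of *Polg* on the opposite strand by 1475 bases and that of *Rad54l* overlaps *Lrrc41* by 2780, so that part of their counts is uncertain, since the strand setting of the counting is not stated. The span of *Fancd2* overlaps by 257 bases that of 4931417G12Rik, which had at most 2 counts in any library.

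**Figure D1:**
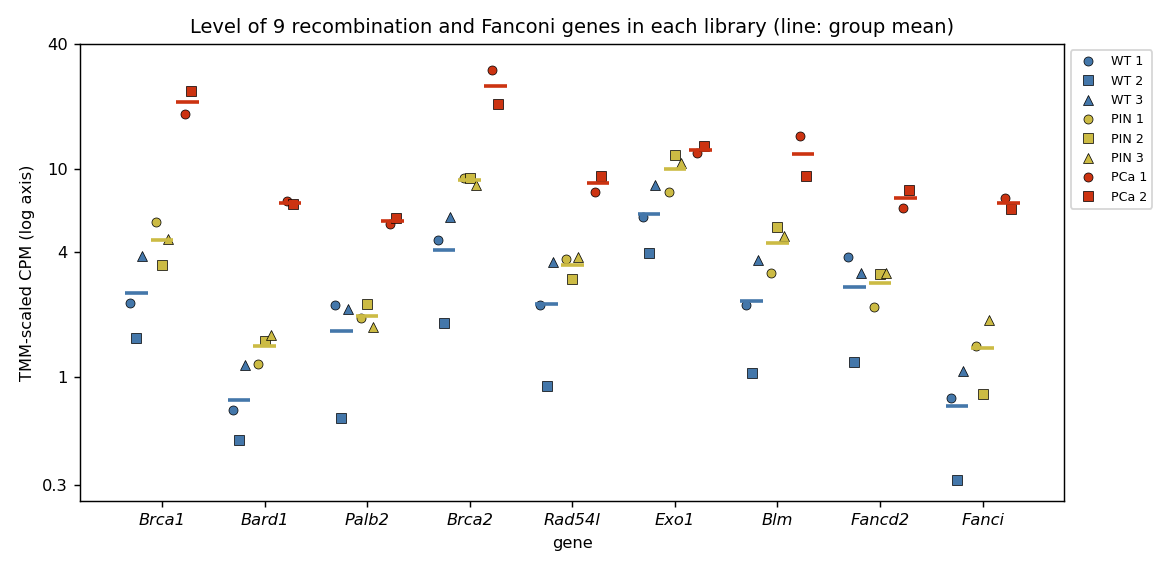
TMM-scaled CPM (log axis) of the 9 genes in each of the 3 WT, 3 PIN and 2 PCa libraries, with a line at each group's mean. Both red PCa points lie above all WT and PIN points for each gene, and WT 2 is the lowest point of each gene. *Exo1* has the smallest gap between the PCa points and those of the other groups.

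Per kilobase of summed exon length (RPKM), the order of the genes differed between conditions. In WT, *Exo1* had the highest mean level, 1.10 RPKM (range 0.716 to 1.53), followed by *Blm* at 0.467 and *Brca2* at 0.380, and *Bard1* (0.137) and *Fanci* (0.125) were the lowest. Only *Blm* (0.211 to 0.740) overlapped the range of *Exo1* among the other 8 genes, and the ranges from *Blm* down to *Rad54l* overlapped each other. *Exo1* also led in PIN, at 1.83 RPKM, above *Blm* (0.886) and *Brca2* (0.825). In PCa the 4 highest levels were *Brca1* at 2.48 RPKM (2.16 to 2.79), *Blm* at 2.39 (1.86 to 2.91), *Brca2* at 2.35 (1.91 to 2.79) and *Exo1* at 2.25 (2.17 to 2.34), whose ranges overlapped. The other 5 lay between 0.911 (*Fancd2*) and 1.22 (*Bard1*), with each of their libraries below each library of the upper 4.

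The step from PIN to PCa was tested in the same fit and shares its PCa libraries with the comparison above. Of the 9 genes, 2 were called higher in PCa than in PIN, where 2.55% of all genes were called higher and 3.17% lower. *Brca1* was 2.21 higher on the log2 scale (SE 0.43, edgeR adjusted p = 0.0331) and *Bard1* 2.29 higher (SE 0.47, adjusted p = 0.0364). *Fanci* had as large a difference, 2.32, with a larger error (SE 0.60), and did not pass (edgeR adjusted p = 0.0639). *Palb2*, *Brca2*, *Rad54l*, *Blm* and *Fancd2* had log2 fold changes of 1.30 to 1.51, with edgeR adjusted p from 0.10 (*Brca2*) to 0.210 (*Rad54l*). For *Exo1* the difference was 0.30 (SE 0.38, edgeR adjusted p = 0.692). The groups did not overlap for 9 of 9 genes, against 21.1% of all genes with both PCa libraries above all PIN libraries. With the replicate number as a block neither *Brca1* (edgeR adjusted p = 0.0717) nor *Bard1* (0.0928) was called, and *Bard1* was not called with no low-count filter (0.0534). The calls also depended on single libraries: 0 of 9 remained in the fits without WT 1, PIN 1, PIN 2, PIN 3 or PCa 2, and 5 were called without WT 2. Over all genes the 803 calls became 491, 160, 133, 78 and 974 in those 5 fits and 1095 without WT 2.

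No difference between PIN and WT passed the test for any of the 9 genes. By edgeR 0% of all genes were called higher, and the adjusted p was 1 for each of the 9. DESeq2 called 39 of all genes and limma 0, and both called 0 of the 9. The study itself, by its own procedure, reported genes that differed between PIN and WT. Without adjustment, 1 gene (*Brca2*) had an edgeR p under 0.05, as did 492 of all tested genes, but this became 5 of the 9 without WT 3 and 0 without WT 1 or any 1 of the PIN libraries. All 9 log2 fold changes were positive, from 0.07 (*Fancd2*, SE 0.48) to 1.12 (*Brca2*, SE 0.42), with a median of 0.83 against -0.02 over all genes. Between PIN and WT, 2 of the 9 genes, *Bard1* and *Brca2*, had every PIN library above every WT library, where 6.48% of all genes did. Without WT 2, the library with the lowest levels, the median fell to 0.56, and *Palb2* (-0.15) and *Fancd2* (-0.29) turned negative, while without WT 3 the median was 1.23.

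**Figure D2:**
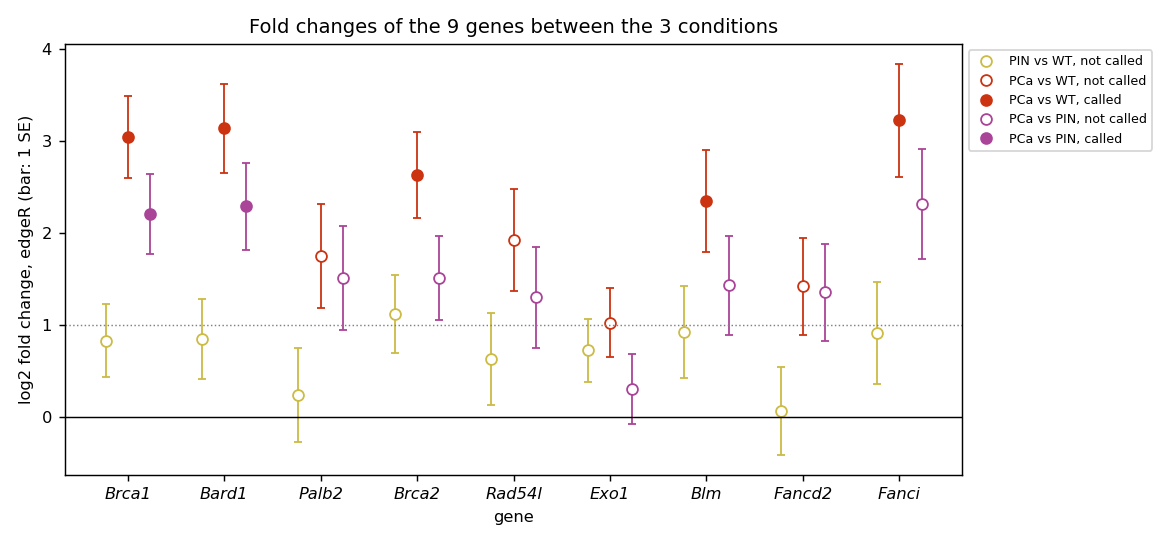
Log2 fold change of each gene, with 1 SE, for the 3 pairs of conditions, filled where the gene was called; the dotted line marks a log2 fold change of 1. PCa against WT holds 5 filled points, PCa against PIN holds 2 (*Brca1*, *Bard1*) and PIN against WT holds 0.

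Other genes of the same pathways were taken from textbook lists, of which 51 of 55 symbols were found and tested. The lists were also chosen with earlier results of these data known. Between PCa and WT, 11 of these 51 were called higher and 1 lower, and their median log2 fold change was 0.56. These 12 calls became 3 without WT 1, 4 without WT 3 or PIN 3, 6 without PIN 1, 7 without PIN 2 or PCa 2, 2 with the replicate number as a block and 0 in a fit of WT and PCa alone. In the other direction, they became 17 with DESeq2, 13 with limma and 18 with plain library sizes. Of 32 other recombination genes, 8 were called higher and 0 lower. The 4 with the largest log2 fold changes were *Rad51l1* (also called *Rad51b*) at 3.82, *Fignl1*, an AAA ATPase, at 3.82, *Eme1*, the partner of the MUS81 nuclease, at 3.38, and *Rad51ap1* at 3.33, all called by edgeR. *Fignl1* kept its call whichever library was left out, *Rad51ap1* lost it without WT 1 and *Eme1* without WT 3. *Eme1* and *Rad51l1* did not pass the filter, and so had no test, without PCa 1 or PCa 2. *Rad51l1* rested on 2 to 4 counts in each WT library and lost its call without WT 1, WT 3 or PIN 3. Also called, and named after their values were seen, were *Gen1*, a junction resolvase (2.39), *Rad18*, a ubiquitin ligase (2.00), and *Rpa1*, a subunit of the single-strand binding protein RPA (1.06).

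*Mre11a*, *Rad50* and *Nbn*, which form the complex that senses breaks and were also named after their values were seen, had log2 fold changes of 0.12, 0.14 and -0.09 between PCa and WT and were not called. Of 19 other Fanconi genes, 3 were called higher and 1 lower. *Brip1*, a helicase that binds BRCA1, measured 1.43, 0.725 and 2.64 CPM in WT, 3.17, 2.65 and 2.90 in PIN, and 8.75 and 9.50 in PCa (log2 fold change PCa against WT 2.51, SE 0.54, edgeR adjusted p = 0.0318). *Ube2t*, the conjugating enzyme that ubiquitinates FANCD2, rose from 1.04, 0.544 and 1.03 CPM to 4.60 and 4.94 (2.45, SE 0.50, edgeR adjusted p = 0.0279). *Brip1* and *Ube2t* each kept their calls in 3 of the 8 fits without 1 library. The third, named after its value was seen, was *Mad2l2* (1.29), a subunit of translesion polymerase zeta and of shieldin. *Stra13*, the symbol in the table for the histone-fold protein CENPX, fell from 21.2, 33.7 and 24.7 CPM in WT to 12.0 and 7.89 in PCa, with 12.99, 17.2 and 16.3 in PIN, a log2 fold change of -1.41 (edgeR adjusted p = 0.0381). That call held in 1 of the 8 fits without 1 library, and with plain library sizes the log2 fold change was -0.83 (edgeR adjusted p = 0.0868). The next lowest were *Wdr48* (-0.56), *Fance* (-0.54) and *Ercc1* (-0.36), none of them called. Between PCa and PIN, 7 of the 51 were called higher and 0 lower, and between PIN and WT 0 were called.

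Other repair pathways are given as a frame for these values. Of 12 genes of non-homologous end joining, 0 were called between PCa and WT by edgeR (3 at an unadjusted p under 0.05), a median log2 fold change of 0.34 and values from -1.29 (*Dclre1c*, the Artemis nuclease) to 0.87 (*Rif1*, a 53BP1 effector). *Rif1* rested on PCa 2, at 0.09 without it and 1.38 without PCa 1, and *Dclre1c* was called without WT 2 (-1.62, edgeR adjusted p = 0.0359). Of 7 mismatch repair genes, 0 were called (2 at an unadjusted p under 0.05), with *Pms1* highest at 1.10. *Pms1* stood at 0.54 without PCa 2 and 1.52 without PCa 1. Among 26 genes of base and nucleotide excision repair, 1 was called, the glycosylase *Neil3* (3.98, edgeR adjusted p = 0.00867), and *Parp1*, the target of PARP inhibitors, was lowest at -0.60 and not called. Of 17 checkpoint genes, 3 were called higher, *Clspn* (claspin, 2.95, a call that held in 2 of the 8 fits without 1 library) and, named after their values were seen, *Timeless* (2.38) and *Tipin* (1.39), which travel with the replication fork. *Atrip* was lowest, at -0.26. The medians of the excision and checkpoint lists were 0.10 and 0.35.

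**Figure D3:**
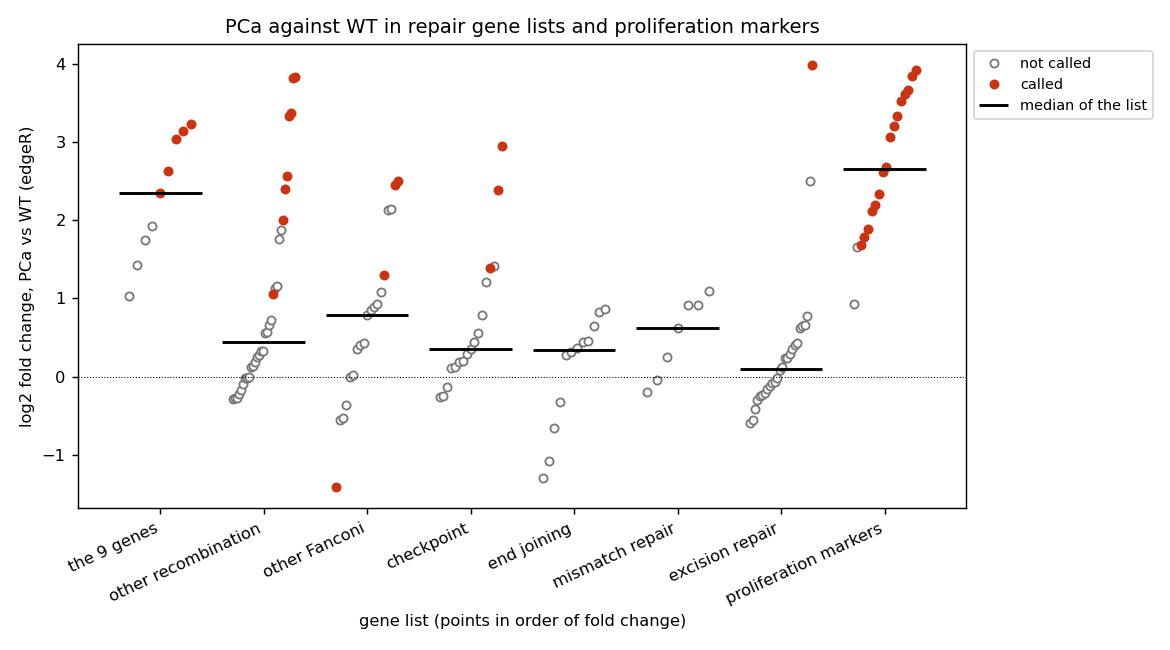
Log2 fold change between PCa and WT of each tested gene in 7 repair or checkpoint lists and in the proliferation markers, red where called, with a line at each list's median. The median of the 9 genes is 2.35 and that of the 18 proliferation markers 2.65, and the medians of the other lists lie between 0.10 and 0.79. The 9 genes and the lists were chosen with earlier results of these data known.

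Since recombination genes are transcribed mainly in S and G2 phase, their levels were set beside 18 proliferation markers. Between PCa and WT, 16 of them were called higher (median log2 fold change 2.65), and between PCa and PIN, 14. *Mki67* measured 20.3, 16.1 and 18.6 CPM in WT, 49.6, 19.5 and 43.0 in PIN, and 223 and 305 in PCa, and *Top2a* and *Pcna* had log2 fold changes of 2.19 and 0.93 between PCa and WT, *Pcna* uncalled. On the scale of log2(CPM + 0.5), the 9 genes lay on average 2.098 and 2.065 above the WT mean in PCa 1 and PCa 2, and the markers 2.42 and 2.61 above it. In PIN the 9 genes lay 0.56, 0.64 and 0.75 above the WT mean, and the markers 0.56, 0.06 and 0.71, so that in PIN 2 the 9 genes lay above the WT mean while the markers lay near it. In WT 1, WT 2 and WT 3 the 9 genes stood at 0.16, -0.66 and 0.50 from the WT mean, and the markers at 0.15, -0.30 and 0.14. The split in PIN 2 was therefore not particular to PIN, since in WT 3 too the 9 genes lay further above the WT mean than the markers.

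Each gene was then expressed relative to the mean of the markers in its own library. On this scale the median of the 9 differences between PCa and WT was -0.30, with 5 of the 9 lower in PCa. The sign rested on PCa 2: the median was 0.10 without PCa 2, -0.64 without PCa 1 and -0.03 without WT 3. Between PCa and PIN the median difference was -0.74, with 8 of the 9 lower in PCa. *Brca1* (0.36), *Fanci* (0.12), *Brca2* (0.07) and *Bard1* (0.05) had higher means in PCa than in WT, with overlapping groups, and *Blm* (-0.30) also overlapped. For *Exo1* (-1.49), *Fancd2* (-1.14), *Palb2* (-0.91) and *Rad54l* (-0.67), both PCa libraries lay below all WT libraries and below all PIN libraries, 4 of 9 genes in each case. This was so for 88.9% of all tested genes against WT and for 87% against PIN. No test was made of these relative values.

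**Figure D4:**
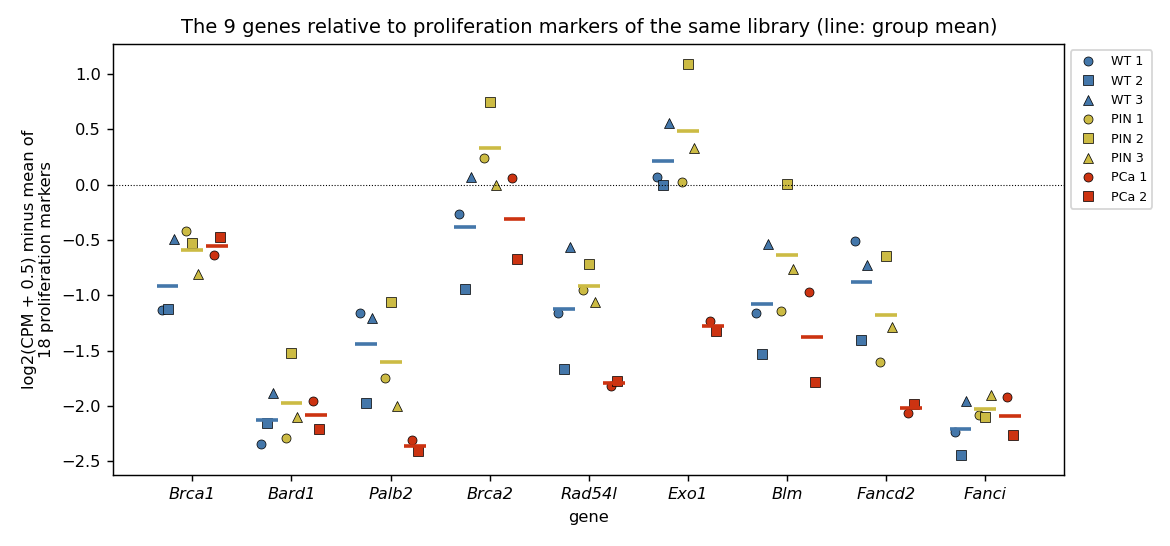
Log2(CPM + 0.5) of each gene minus the mean of 18 proliferation markers in the same library, for all 8 libraries, with a line at each group's mean. PCa points of *Palb2*, *Rad54l*, *Exo1* and *Fancd2* lie below all WT and PIN points, as does *Blm* in PCa 2, and the remaining PCa points lie among those of WT and PIN.

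The genes whose pattern over the 8 libraries was nearest to the mean of the 9 were found by the root mean square difference of centred log2(CPM + 0.5). The 5 nearest were *Pkp1*, a desmosomal plakophilin (0.12), *Dsn1*, a kinetochore protein (0.15), *Brip1* (0.16), *Lekr1* (0.16) and *Dscc1*, part of a clamp loader that acts in sister chromatid cohesion (0.16). *Pkp1* measured 15.6, 8.25 and 17.3 CPM in WT, 20.7, 20.5 and 25.9 in PIN, and 63.7 and 69.8 in PCa, with WT 2 lowest here too. The 9 genes themselves differed from their own mean pattern by 0.18 (*Rad54l*) to 0.49 (*Exo1*). *Brca1* differed by 0.39, and *Exo1* departed by its smaller span.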

How the data were processed

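RNA-seq of 8 mouse prostate tissues was analysed. The authors removed adapters with cutadapt 1.9.1, aligned paired-end reads to mm9 with HISAT2 2.1.0 and counted reads per gene with HTSeq 0.6.1, per the submitters' processing notes and the study's methods, and the deposited values are raw counts per gene. Groups and replicate numbers came from the sample labels. From the counts, genes with over 1 CPM in at least 2 libraries were kept, TMM factors were computed and 1 model with 3 groups (5 residual degrees of freedom) was fitted in R 4.3.3 with edgeR 4.0.16 (quasi-likelihood F-test), with the test and thresholds of the study's methods. Those methods name TPM as the input of the test, and their results name a median fold difference test, whereas raw counts were fitted here. The study reported more differing genes than were called here in each comparison, that of PIN and WT included. They also require concordant results with TMM and upper-quartile normalization, which was an alternative here and not part of a call. Standard errors were derived from the fold change and F statistic. RPKM used the summed exon length of the deposited table. The members and lists were chosen with earlier results of these data known. Named genes were all members, *Brip1*, *Ube2t*, the 4 highest and 4 lowest pathway genes, the extremes of each comparison list, called meiotic genes, *Mki67*, *Top2a* and *Pcna*, and 2 genes of these lists are not reported here. Alternatives included DESeq2 1.42.0, limma 3.58.1 (limma-trend), other filters and scalings, and leaving out libraries. The scripts were tested on simulated data. Total counts per library limit the precision of genes with few counts, and 2 PCa libraries limit every comparison with PCa.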

Additional observations from a re-analysis of the deposited data

How the results depend on the processing

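In the fits that kept every library, the log2 fold changes of the 9 genes stayed positive in all 3 comparisons. The number of them called between PCa and WT (5) became 4 with upper-quartile normalization (without *Blm*). It became 8 with DESeq2, 0 when only the 2 groups compared were fitted and 8 with plain library sizes, an alternative chosen after seeing the data, which shifted the median of all genes to 0.56. All genes called (1198) became 1108, 2487, 130 and 2394 in these 4 fits, in that order. Pathway genes called in that comparison became 0 with only the 2 groups compared, 17 with DESeq2 and 18 with plain library sizes. Leaving out each library gave 2 to 5 of the 9 and 3 to 12 of the pathway genes, with 2 of the 9 left without WT 1 and 3 without WT 3, PIN 1 or PIN 3. Between PCa and PIN, members called (2) became 4 with DESeq2, 1 with no low-count filter, and 0 to 5 with 1 library left out. Pathway genes called (7) became 3 with upper-quartile normalization, 11 with DESeq2, 3 with no low-count filter, 2 with only the 2 groups compared, 11 with plain library sizes, and 0 to 9 with 1 library left out. Same-numbered libraries share only a number, with residual correlations of -0.05 to 0.27 (mean 0.09) and a mean of -0.04 for different numbers. Since the residuals are taken from group means, these means are not independent, and their contrast cannot decide whether libraries were paired. With the replicate number as a block, 4 members and 2 pathway genes were called between PCa and WT and 0 and 0 between PCa and PIN. With 1 library left out, log2 fold changes between PIN and WT ranged from -0.15 to 0.50 for *Palb2* and from -0.29 to 0.38 for *Fancd2*. Both were lowest, and negative, without WT 2, and *Fancd2* was also negative without PIN 2 (-0.02) or PIN 3 (-0.02). With plain library sizes *Wdr48* (0.00899), *Ercc1* (0.21) and *Atrip* (0.28) turned positive. The median of the 9 relative to proliferation markers ranged from -0.64 without PCa 1 to 0.10 without PCa 2. With 2 PCa libraries and member counts down to 7, small differences could not be detected. The cause of these changes was not tested.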

Other observations

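Of 16 meiosis-specific recombination genes found in the table, 6 had enough reads to test and 2 were called higher in PCa than in WT by edgeR. *Mnd1*, which with PSMC3IP helps the meiotic recombinase DMC1, measured 0.445, 0.498 and 0.732 CPM in WT, 1.55, 1.07 and 0.942 in PIN, and 3.25 and 2.71 in PCa, a log2 fold change of 2.40 between PCa and WT (SE 0.51, edgeR adjusted p = 0.0314). Its call held in 2 of the 8 fits without 1 library, those without PCa 1 or PCa 2, and was lost with no low-count filter (edgeR adjusted p = 0.0524). *Spo11*, the enzyme that makes the breaks of meiosis, measured at most 0.551 CPM in the WT and PIN libraries and 3.89 and 46.6 in PCa 1 and PCa 2, a log2 fold change of 6.86 between PCa and WT (SE 1.39, edgeR adjusted p = 0.0276). That fold change was 8.92 without WT 3, 6.44 without WT 1 and 6.41 without WT 2. The *Spo11* call held without PIN 2 alone, was lost without any 1 of the WT libraries, PIN 1 or PIN 3 (edgeR adjusted p up to 0.0751), and could not be tested without either PCa library, when too few libraries passed the filter. *Mnd1* and *Spo11* also lost their calls with the replicate number as a block and in a fit of WT and PCa alone.

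The tumors differed from each other in other meiotic genes too, named after their values were seen. *Rec8*, a meiotic cohesin subunit, measured 0.161 CPM in PCa 1 and 59.2 in PCa 2, with 30.8 to 52.2 in WT, and *Tex15* measured 0.354 and 97.8, with 24.5 to 30.3 in WT. The 8 germ cell markers summed to at most 2.28 CPM in any library.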
